A study of Mus musculus with 32 samples.

Results

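Eosinophil progenitors (EoPs) from mice that make excess IL-5 were compared with EoPs from normal mice. The comparison used 3 arrays of IL5T EoPs and 3 of WT EoPs, chosen by the cell type and genotype in the sample labels, out of 32 arrays of the series. IL5T mice carry an IL-5 transgene driven by the CD2 promoter, a promoter of the T cell lineage, so that the EoPs were exposed to the cytokine in the living animal. WT mice carry no transgene, and both genotypes were on the BALB/c strain. All mice were between 7 and 12 weeks of age, and each array held RNA from a pool of mice. The p-values below measure the spread between such pools, estimated jointly over the 9 groups of the series. That spread is not the one among EoP arrays alone, so a gene whose EoP values lie close together can still fail the test. EoPs of both genotypes were sorted from the marrow of femurs and tibiae as lineage-negative, c-Kit+, Sca1-, CD34+, CD16/32+ and IL-5Rα+ cells, where the lineage cocktail held antibodies to CD3, CD4, CD8, B220, Gr1 and Ter119. All 6 EoP arrays were run together on version 2.0 of the Illumina MouseWG-6 beadchip. Granulocyte-macrophage progenitors (GMPs, 5 IL5T and 3 WT arrays), sorted by the same markers but negative for IL-5Rα, and common myeloid progenitors (CMPs, 5 IL5T and 3 WT arrays), with low CD16/32, served to ask whether an effect in EoPs differed from that in earlier progenitors. All WT arrays of both were of version 2.0. Of the 5 IL5T arrays of each, 2 were of version 2.0 and the rest of version 1.1. The GMP and CMP effects thus rest partly on the term for beadchip version in the model. IL5T CMP replicate 2 carried a GMP name among the deposited intensities, and its sample title was followed.

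EoPs are marrow cells already committed to the eosinophil lineage. IL-5 binds IL-5Rα, which signals together with the common β chain shared with the IL-3 and GM-CSF receptors, and activates the kinase JAK2 and the transcription factor STAT5 along with the RAS-ERK and PI3K pathways. The cytokine is known for driving the growth, survival and maturation of eosinophils, and STAT5 for inducing the SOCS family members that damp its own signal.

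Each value below is a normalized log2 intensity, on which the highest probe of an EoP array read 14.7, and a probe was called detected where its detection p-value was under 0.05. Between 9287 and 9923 of the 24159 probes were detected on each EoP array. Over the 9885 probes used to compare arrays, the root mean square difference between an IL5T and a WT EoP array was 0.56 to 0.78, against 0.49 to 0.56 between IL5T arrays and 0.33 to 0.39 between WT arrays. The IL5T EoP arrays thus lay farther from each other than the WT EoP arrays did, and the closest pair across genotypes was as far apart as the farthest pair of IL5T arrays. Of all probes, 907 were higher in IL5T EoPs (3.75%) and 857 were lower (3.55%) at an adjusted p under 0.05 by limma. Of these, 223 higher and 338 lower probes changed by at least 1 on the log2 scale. Among 15251 genes, each represented by 1 probe, 643 were higher (4.22%) and 636 lower (4.17%), and the median change over all genes was 0.01. In 1238 of the 1279 genes called, the 3 IL5T values did not overlap the 3 WT values. A lack of overlap thus adds little to a call. The counts of probes depended on single arrays: 551 were higher and 562 lower without WT EoP replicate 1, 582 were higher without WT EoP replicate 3, and 562 were lower without IL5T EoP replicate 2. They also fell to 497 higher and 477 lower when the level of the hemoglobin gene Hba-a1 was added to the model, an alternative chosen after seeing the data.

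Described first are the leading genes of each direction, 15 that rose and 15 that fell, chosen by the size of their change among the genes that passed the test, whose 3 IL5T values did not overlap the 3 WT values, and whose probe was detected on all 3 arrays of the higher group. Those that rose include genes of membrane lipid handling, immune receptors, STAT5 feedback and the secretory pathway. Wipi1, which encodes a phosphoinositide-binding protein of autophagosome formation, read 9.07, 8.89 and 9.50 in IL5T EoPs, against 4.93, 4.89 and 4.86 in WT EoPs. The probe was undetected on all 3 WT EoP arrays. Where this held for a group, the fold was taken against the lowest signal detected on its arrays and is a lower bound, here at least 13.0-fold (adjusted p = 0.0057 by limma). Wipi1 was also undetected on the 3 arrays each of WT GMPs and WT CMPs and detected on all 5 of IL5T GMPs and all 5 of IL5T CMPs, and the differences of its effect in EoPs from those in GMPs (adjusted p = 0.704) and CMPs (adjusted p = 0.484) did not pass the test. Mfsd2a, a transporter of lysophosphatidylcholine that carries omega-3 fatty acids, read 9.42, 9.12 and 9.64 in IL5T EoPs, against 5.10, 5.36 and 5.69 in WT EoPs, a rise of 4.01 ± 0.21 (SE, adjusted p = 2.89e-12). The values of WT EoP replicates 1 and 2 lay below the lowest signal detected on their arrays (5.44 and 5.48), so the rise is set against a level near background. In GMPs the Mfsd2a probe was detected on 1 of 5 IL5T arrays and on none of 3 WT arrays.

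Slamf9, a receptor of the SLAM family of immune cells, read 9.34, 9.72 and 10.20 in IL5T EoPs, against 6.09, 6.20 and 5.87 in WT EoPs, a rise of 3.70 ± 0.38 (adjusted p = 5.16e-07). Its changes in GMPs and CMPs were -0.04 and -0.02, and the difference from each passed the test. Bcl2a1b, a survival protein of the BCL2 family, read 12.35, 12.23 and 12.52 in IL5T EoPs, against 9.20, 9.34 and 9.45 in WT EoPs. Mouse Bcl2a1 genes are near-identical copies that 1 probe may not tell apart, so this rise of 3.04 is of the family. Bcl2a1b was 1 of 3 genes called in both EoPs and GMPs, where it rose by 2.02 (adjusted p = 0.0232).

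The other 11 of the 15 largest rises were Socs2, Kdelr3, Dhrs9, Tpbg, Rhoj, Kcnk5, Sema4a, Gpr15, Cyp11a1, Lmna and F2r, with log2 changes between 2.34 and 2.91. All 15 kept their call under every alternative tried, including each EoP array left out in turn. Dhrs9, a short-chain dehydrogenase that acts on retinol and steroids, was undetected in WT EoPs and at least 4.17-fold higher in IL5T EoPs. Gpr15, a homing receptor of lymphocytes, read 6.96, 7.69 and 7.35 in IL5T EoPs, against 4.87, 4.90 and 4.88 in WT EoPs where it was undetected, and was at least 3.67-fold higher. Cyp11a1, which makes pregnenolone from cholesterol, read 10.26, 10.34 and 10.35 in IL5T EoPs, against 7.87, 8.02 and 7.86 in WT EoPs, so that the 3 arrays of each group nearly coincided. Lmna, the A-type lamin of the nuclear envelope, read 8.54, 8.82 and 9.21 in IL5T EoPs, against 6.58, 6.44 and 6.50 in WT EoPs. F2r, the thrombin receptor PAR1, read 10.61, 10.46 and 10.99 in IL5T EoPs, against 8.24, 8.55 and 8.24 in WT EoPs. A further probe of Kcnk5, a potassium channel, was not called, with a change of 0.18.

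**Figure D1:**
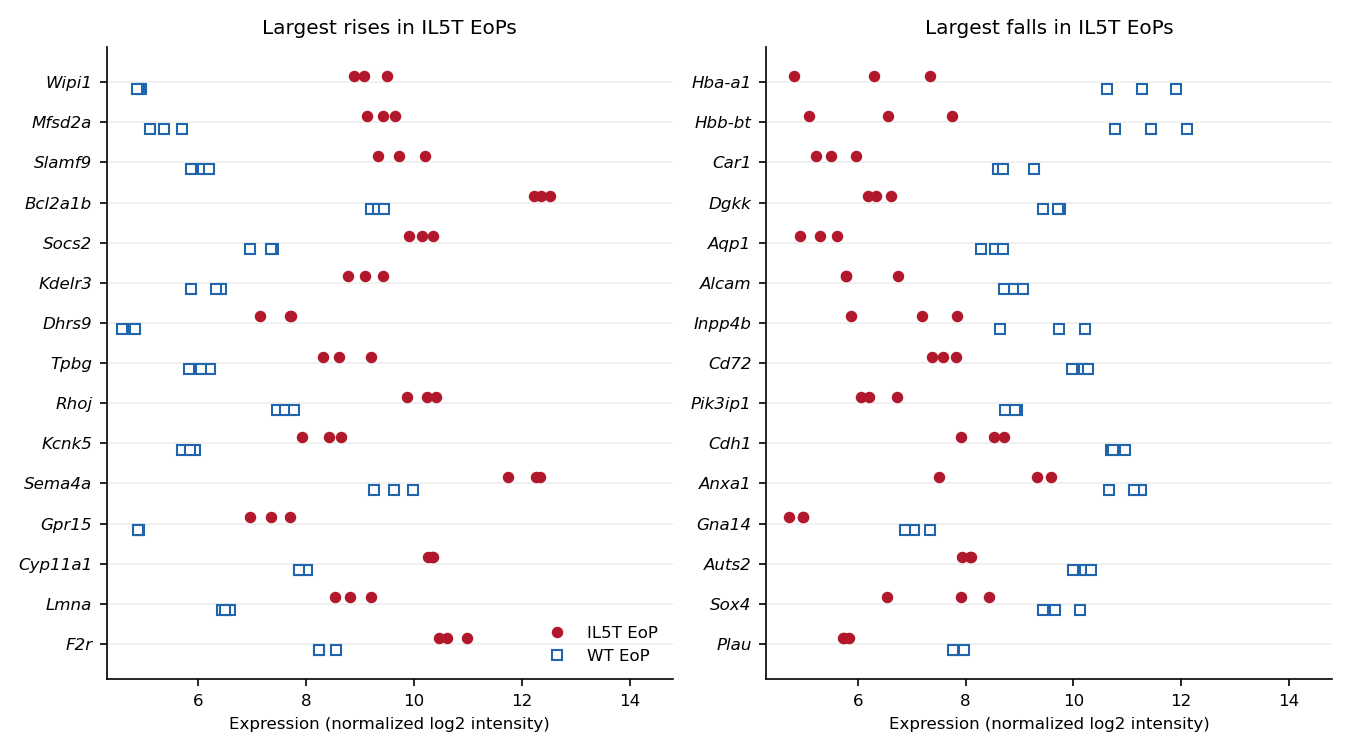
Normalized log2 intensity of the 15 leading rises (left panel) and the 15 leading falls (right panel), with 1 point per array, filled circles for IL5T EoPs and open squares for WT EoPs. The genes were chosen to have no overlap between the IL5T and WT points, and the widest spreads among the IL5T arrays are those of Hba-a1 and Hbb-bt, which read 4.81 to 7.34 and 5.10 to 7.74.

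Among the largest falls, 4 were genes of red cells and the other 11 were genes of signaling, adhesion and transcription. Dgkk, a diacylglycerol kinase, read 6.33, 6.19 and 6.62 in IL5T EoPs, against 9.43, 9.75 and 9.71 in WT EoPs, a log2 change of -3.25 ± 0.13 (adjusted p = 2.46e-14). It had the smallest adjusted p of the genes named, and its probe was detected on all 6 EoP arrays and on 1 of the other 26 arrays. A further Dgkk probe, detected on 1 EoP array, was not called (0.03, adjusted p = 0.966). Alcam, an adhesion molecule of leukocytes, read 6.74, 5.79 and 5.78 in IL5T EoPs, against 8.90, 8.72 and 9.07 in WT EoPs. Cdh1, E-cadherin, read 8.53, 8.71 and 7.92 in IL5T EoPs, against 10.96, 10.69 and 10.73 in WT EoPs, a change of -2.41 ± 0.29 (adjusted p = 5.28e-06). Alcam and Cdh1 were picked from the largest falls, and no list of adhesion genes was counted. Both falls differed from the effects in GMPs (adjusted p = 0.00209 for Alcam and 0.0232 for Cdh1).

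Pik3ip1, an inhibitor of PI3K, read 6.73, 6.06 and 6.20 in IL5T EoPs, against 8.96, 8.74 and 8.91 in WT EoPs, a change of -2.54 ± 0.24 (adjusted p = 1.62e-07). Inpp4b, a phosphatase that removes a product of PI3K, read 7.84, 5.87 and 7.20 in IL5T EoPs, against 9.73, 8.63 and 10.22 in WT EoPs. Its call was lost in a fit of the EoP arrays alone (adjusted p = 0.0562). Of 15 measured genes of a list of PI3K and mTORC1 signaling, 1 rose and 4 fell, where 4.22% of all genes rose and 4.17% fell, with a median of -0.04. The 4 were Inpp4b, Pik3ip1, Pik3r1 and Rictor. Cd72, a receptor of B cells with an inhibitory motif, changed by -2.55 (adjusted p = 0.00197), and Auts2, a nuclear regulator of transcription, by -2.14 (adjusted p = 1.98e-08), with -0.33 at a further Auts2 probe that was not called. Gna14, a G protein α subunit of the Gq class, was undetected in IL5T EoPs and at least 2.89-fold lower there. Also lower were Anxa1, the glucocorticoid-induced annexin (-2.20), Plau, the urokinase (-2.08), and Sox4, a transcription factor of progenitors (-2.11). The call for Sox4 was lost without IL5T EoP replicate 2 (adjusted p = 0.179), WT EoP replicate 1 (adjusted p = 0.118) or WT EoP replicate 3 (adjusted p = 0.0713).

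The genes of red cells moved in both directions and with wide spread. Hba-a1, an α globin, read 6.30, 7.34 and 4.81 in IL5T EoPs, against 11.28, 11.91 and 10.63 in WT EoPs, a change of -5.12 ± 1.46 (adjusted p = 0.0303). The call was lost without any of 5 of the EoP arrays in turn, with adjusted p from 0.0614 to 0.125, and was kept without IL5T EoP replicate 2. Hbb-bt, a β globin with near-identical copies, changed by -4.98 (adjusted p = 0.0401), a call lost without any 1 of the 6 arrays, and 3 further probes of it were lower without passing the test. Car1, the carbonic anhydrase of red cells, changed by -3.28 (adjusted p = 0.00272) and Aqp1, their water channel, by -3.23 (adjusted p = 0.00763). Tfrc, the transferrin receptor, rose, at 12.35, 12.56 and 12.54 in IL5T EoPs, against 11.14, 11.33 and 11.51 in WT EoPs. Klf1, the erythroid transcription factor, read 9.15, 9.40 and 9.47 in IL5T EoPs, against 8.56, 8.41 and 8.08 in WT EoPs (0.99 ± 0.50, adjusted p = 0.286). The globins and Car1 were lower in IL5T EoPs, while Tfrc was higher. Car1 was also called in CMPs, where it changed by -3.07 (adjusted p = 0.0268).

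Of the 9 erythroid markers measured, 1 rose and 3 fell, where 4.22% of all genes rose and 4.17% fell, and their summed level was 12.60 to 12.85 in IL5T EoPs, against 12.83 to 13.57 in WT EoPs. Ter119, an antigen of late red cells, was in the lineage cocktail of the sort, and the part of red cell RNA in the other results was not tested beyond the fit with Hba-a1 in the model. In arrays of pooled cells, fewer cells of a type and less RNA per cell cannot be told apart. Sex-linked genes varied between the pools in both groups. Xist, the RNA of the inactive X chromosome, read 9.91, 5.09 and 9.34 in IL5T EoPs, against 4.96, 6.54 and 11.26 in WT EoPs, and Eif2s3y, on the Y chromosome, was detected on all 6 arrays. Adding the level of Xist to the model gave 892 higher and 847 lower probes.

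**Figure D2:**
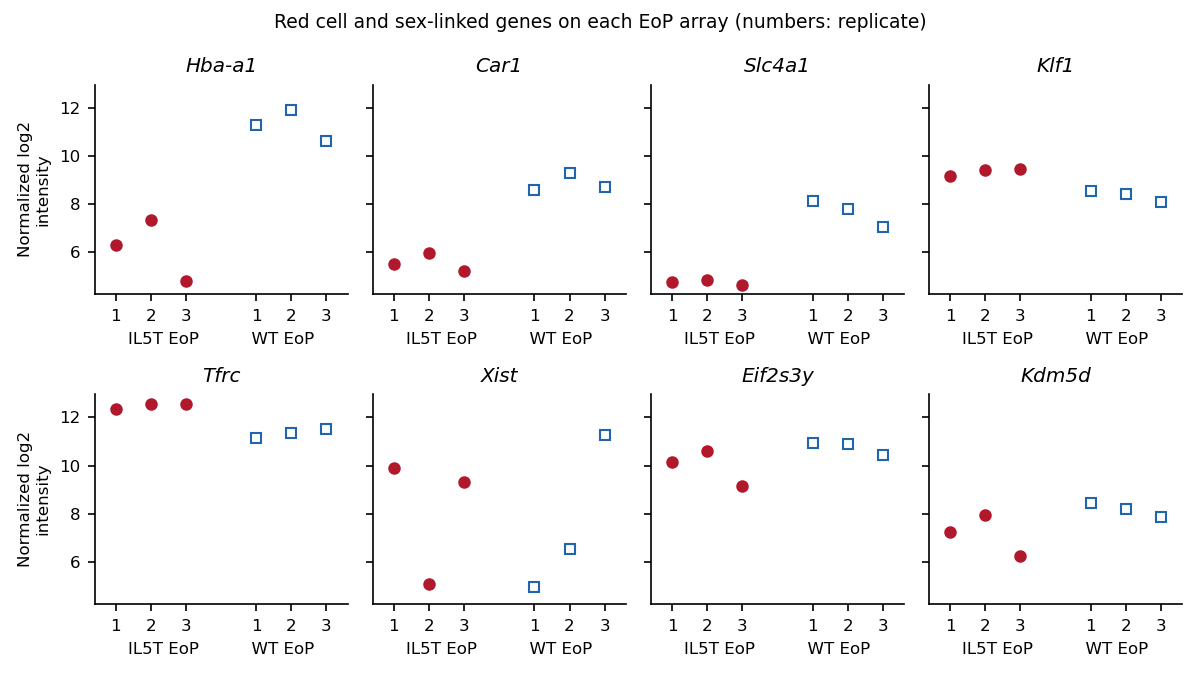
Normalized log2 intensity (vertical axis) of 5 red cell genes and 3 sex-linked genes on each EoP array, numbered by replicate, with filled circles for IL5T EoPs and open squares for WT EoPs. Hba-a1, Car1 and Slc4a1 are low on all 3 IL5T arrays, Tfrc reads higher on them, and Xist ranges from 4.96 to 11.26 with no order by genotype.

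Markers of other cells that an EoP gate could hold were summed by list. The sums were taken over unlogged intensities and then put on the log2 scale, so the brightest members of a list weigh most. Counts of called markers below stand beside the 4.22% of all genes that rose and the 4.17% that fell. Summed mast cell and basophil markers read 13.81 to 14.21 in IL5T EoPs, against 14.92 to 14.94 in WT EoPs, and 1 of 12 measured, Cpa3, the mast cell carboxypeptidase, passed the test (-1.47 ± 0.45, adjusted p = 0.0425). Its call was lost without any 1 of the 6 arrays, with adjusted p from 0.0588 to 0.147. Prss34, a basophil protease, read 8.27, 8.38 and 8.08 in IL5T EoPs, against 10.68, 10.46 and 10.98 in WT EoPs, without passing the test (adjusted p = 0.0881). The mast cell proteases Mcpt1, Mcpt2, Mcpt4, Tpsb2 and Tpsab1 were undetected on all 6 arrays.

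Summed monocyte markers were 11.55 to 12.17 in IL5T EoPs, against 12.39 to 13.13 in WT EoPs, with 0 of 9 members called, and summed stem and multipotent progenitor markers were 11.26 to 11.77, against 12.03 to 12.31, with 2 of 12 called, Sox4 and Meis1, both lower. Neutrophil primary granule markers summed to 15.50 to 15.78 in IL5T EoPs, against 15.87 to 16.10 in WT EoPs, with 0 of 6 called. Summed T cell markers overlapped (13.33 to 13.94 in IL5T EoPs, against 13.36 to 13.48 in WT EoPs), as did neutrophil secondary granule and dendritic cell markers, while B cell markers were lower (10.02 to 10.17, against 10.93 to 11.10) through Cd72, with Cd79a, Vpreb3, Jchain and Blnk undetected on all 6 arrays. Summed NK and innate lymphoid markers were 13.18 to 13.38 in IL5T EoPs, against 13.62 to 13.73 in WT EoPs, with 1 of 10 called, Rora, which was lower. The sums for monocytes, mast cells and basophils, primary granules, stem cells and NK and innate lymphoid cells thus did not overlap and were lower in IL5T EoPs, and their part in the other results was not tested. Of 10 markers of mature eosinophils, none passed the test and 6, among them Ccr3 and Siglecf, were undetected on all 6 arrays. In a fit of the EoP arrays alone 2 of these markers rose and 0 fell, and with arrays of version 2.0 alone 0 rose and 1 fell. The summed level of the 10 markers was 8.51 to 8.76 in IL5T EoPs, against 8.26 to 8.30 in WT EoPs, higher without overlap in IL5T EoPs, and its part in the other results was not tested.

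The transgene Il5, the receptor genes Il5ra and Csf2rb, and Jak2 did not pass the test in EoPs, which does not show that they were unchanged. Il5 was undetected on all 6 EoP arrays, at 5.18, 4.69 and 4.93 in IL5T EoPs, against 4.96, 4.80 and 4.70 in WT EoPs, and was detected on 11 of the other 26 arrays. Because EoPs of these mice need not express the transgene themselves, the probe did not check the labels. Il5ra, which encodes the chain that the sort selected on, read 6.60, 6.96 and 5.27 in IL5T EoPs, against 6.80, 6.72 and 6.86 in WT EoPs (-0.52 ± 0.31, adjusted p = 0.414). Its probe was detected on 5 of the 6 EoP arrays and on 2 of the other 26. Csf2rb, the common β chain, read 7.82, 7.03 and 7.67 in IL5T EoPs, against 7.40, 7.28 and 7.19 in WT EoPs (0.22 ± 0.34, adjusted p = 0.843), and Jak2 changed by -0.27 ± 0.14 (adjusted p = 0.301).

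Of the 13 measured genes of the receptor and its kinases, 1 passed the test, where 4.22% of all genes rose and 4.17% fell. A count of 1 among so few genes is not read as a result for the list. The gene called was Stat3, a transcription factor of cytokine receptors, which read 9.96, 9.18 and 9.93 in IL5T EoPs, against 10.67, 10.44 and 10.81 in WT EoPs (-0.95 ± 0.23, adjusted p = 0.00896). The call for Stat3 was lost without IL5T EoP replicate 2 (adjusted p = 0.0843) or WT EoP replicate 3 (adjusted p = 0.0509). Kit, the stem cell factor receptor that the sort also selected on, read 11.20, 11.34 and 11.26 in IL5T EoPs, against 12.36, 12.20 and 12.43 in WT EoPs, a change of -1.06 ± 0.19 (adjusted p = 0.000616) without overlap. A further Kit probe moved the same way without passing the test (-0.86, adjusted p = 0.161). The c-Kit protein was a gate in both groups, though by the study's re-sort the sorted populations were not fully pure. The fall in Kit differed from the effect in GMPs (0.00, adjusted p of the difference 0.0266), and its cause was not tested.

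Of the feedback and target genes of STAT5, Socs2 was among the 15 largest rises, and 12 of the 18 members measured did not pass the test. Of these 18 measured members of a list of STAT5 feedback and target genes, 5 rose and 1 fell, where 4.22% of all genes rose and 4.17% fell, and the list median was 0.37 against 0.01 over all genes. With Hba-a1 in the model 3 rose and 2 fell, with a list median of 0.1. Socs2, a feedback inhibitor of cytokine and growth hormone receptors, read 10.15, 9.91 and 10.36 in IL5T EoPs, against 6.95, 7.38 and 7.34 in WT EoPs, a rise of 2.91 ± 0.24 (adjusted p = 1.96e-08). Cish, a feedback inhibitor of the same family, read 10.35, 10.61 and 11.04 in IL5T EoPs, against 8.42, 8.41 and 8.44 in WT EoPs, a rise of 2.24 ± 0.23 (adjusted p = 4.59e-07). Both feedback genes were thus well above every WT array. Pim1, a survival kinase, read 10.13, 9.31 and 9.82 in IL5T EoPs, against 8.04, 7.91 and 8.21 in WT EoPs (1.70 ± 0.41, adjusted p = 0.00902), a call lost with Hba-a1 in the model (adjusted p = 0.113).

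Id1, an inhibitor of helix-loop-helix transcription factors, read 7.54, 8.09 and 8.59 in IL5T EoPs, against 6.61, 6.70 and 6.54 in WT EoPs (1.46 ± 0.37, adjusted p = 0.0139). Its call was lost without IL5T EoP replicate 3 (adjusted p = 0.0881) or WT EoP replicate 3 (adjusted p = 0.0533). Pim2, a kinase related to Pim1, was undetected in WT EoPs and at least 1.66-fold higher in IL5T EoPs, but a further Pim2 probe gave -0.06 (adjusted p = 0.962), so that the gene has no settled direction. Bcl6, a repressor that competes with STAT5 for its sites, read 5.50, 4.81 and 5.45 in IL5T EoPs, against 7.46, 7.36 and 6.78 in WT EoPs, a change of -1.95 ± 0.33 (adjusted p = 0.000431). The fall in Bcl6 differed from the effects in GMPs (0.61, adjusted p of the difference 0.00265) and CMPs (1.07, adjusted p of the difference 0.000406). Other targets did not pass the test: Myc changed by 0.01, Bcl2l1 by 0.51, Mcl1 by -0.29, Socs1 by 0.44 and Socs3 by 0.64.

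**Figure D3:**
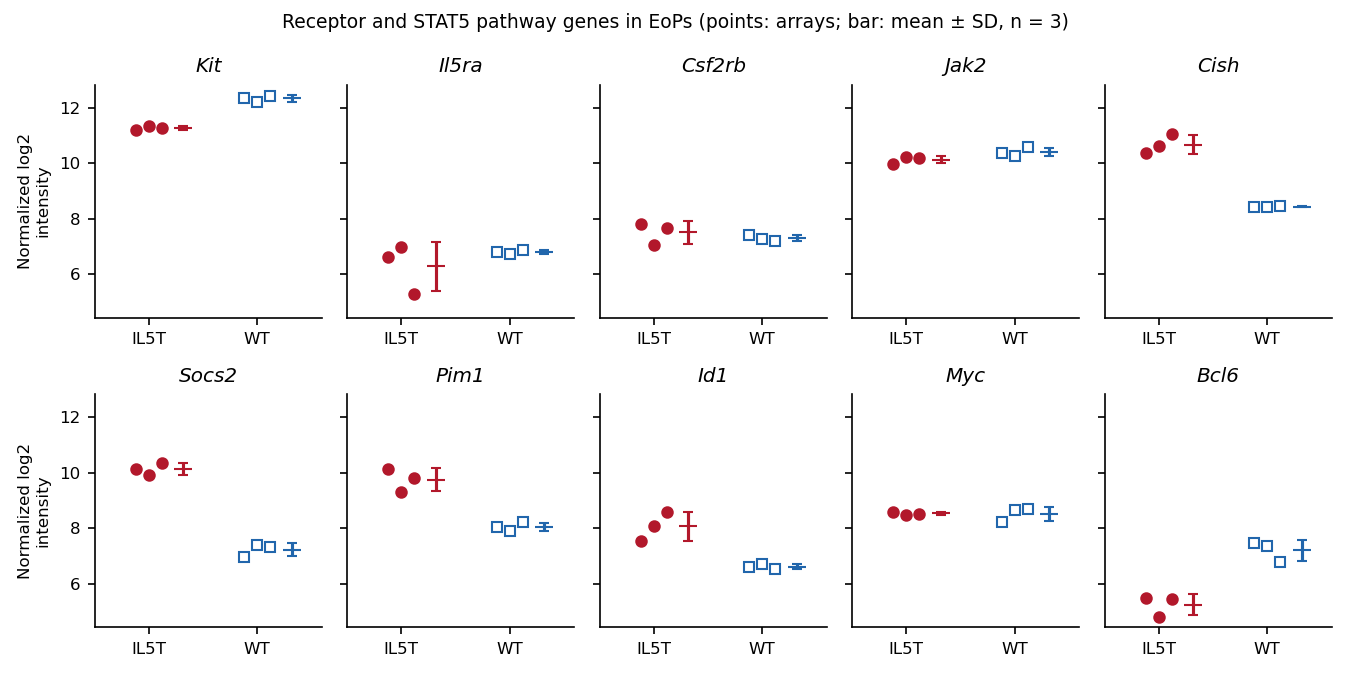
Normalized log2 intensity of 10 genes of the receptor and of STAT5 signaling, with 1 point per array and a bar for the mean ± SD of 3 arrays, IL5T EoPs on the left of each panel and WT EoPs on the right. Il5ra, Csf2rb, Jak2 and Myc did not pass the test, Cish, Socs2, Pim1 and Id1 were higher on every IL5T array, and Kit and Bcl6 were lower on every IL5T array.

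Socs2 and Cish separated EoPs from earlier progenitors to different degrees. Socs2 changed by 0.44 in GMPs and by -0.96 in CMPs, and both differed from the rise in EoPs (adjusted p = 0.000126 and 1.47e-07). Cish changed by 1.13 in GMPs, which did not differ from EoPs at the threshold (adjusted p = 0.0612), and by 0.57 in CMPs, which did (adjusted p = 0.00352).

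The promoter of Bcl6 is shown because it held the STAT motif of a STAT5 list member that changed. The 250 bases before each annotated gene start were taken from RefSeq promoters on build GRCm38.p6 and searched on both strands for TTCNNNGAA, the core letters of a STAT site. Of the 13 list members with a promoter, 2 held it (15.4%), Bcl6 and Socs3, against 8.13% of all 27025 genes with a promoter, 6.10% of the genes that rose and 6.81% of those that fell. A match is a description of letters, and the share among the genes that changed was not above that of all genes. The stretch at chr16:23981284-23981533, before 1 of 2 annotated starts of the gene, on the minus strand held 3 matches, in capitals, none overlapping the other motifs searched.

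Bcl6: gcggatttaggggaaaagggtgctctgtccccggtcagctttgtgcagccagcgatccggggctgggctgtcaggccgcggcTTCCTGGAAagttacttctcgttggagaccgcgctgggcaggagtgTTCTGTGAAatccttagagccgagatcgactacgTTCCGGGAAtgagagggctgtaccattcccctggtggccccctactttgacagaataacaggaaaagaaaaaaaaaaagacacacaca

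Genes of protein folding in the endoplasmic reticulum (ER) were next described by their counts. The ER list holds chaperones, retention receptors, degradation factors and regulators of the unfolded protein response, which cells with a large secretory output use to match folding capacity to load. Of 27 measured members, 12 rose, none fell and 15 did not pass the test, where 4.22% of all genes rose and 4.17% fell, and the list median was 0.57. The counts of the lists that follow stand beside the same 4.22% and 4.17% and the median of 0.01 over all genes. Of the 15251 genes, 7093 were detected on at least 3 of the 6 EoP arrays. Members of most of these lists were detected more often, with 34 of 37 in oxidative phosphorylation. The shares over all genes are thus a low mark for such lists. In a fit of the 9885 probes detected on at least 3 EoP arrays, 971 were higher and 991 lower. Kdelr3, a receptor that returns ER proteins from the Golgi, read 8.78, 9.09 and 9.43 in IL5T EoPs, against 6.42, 6.33 and 5.87 in WT EoPs, a rise of 2.89 ± 0.29 (adjusted p = 3.19e-07). Derl3, a channel component of ER-associated degradation, read 7.69, 8.18 and 8.56 in IL5T EoPs, against 5.98, 6.86 and 5.92 in WT EoPs (1.89 ± 0.23, adjusted p = 7.85e-06). Creld2, an ER disulfide isomerase, read 13.03, 12.95 and 13.10 in IL5T EoPs, against 11.57, 11.67 and 11.99 in WT EoPs (1.28 ± 0.17, adjusted p = 2.63e-05). Each of these was higher on every IL5T array than on any WT array.

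The other ER genes that rose were Sdf2l1 (1.32), Bhlha15 (1.22), Fkbp11 (1.22), Kdelr2 (1.09), Hyou1 (1.00), Sec61b (0.93), Derl2, Pdia4 (0.81) and Xbp1 (0.43). Sdf2l1 and Hyou1 act with the chaperone BiP, Fkbp11 is a prolyl isomerase of secretory cells, and Bhlha15 and Xbp1 are transcription factors of secretory cells. The call for Bhlha15 was lost without any 1 of the 6 arrays, with adjusted p from 0.0600 to 0.137. Hspa5, which encodes BiP, read 10.49, 10.19 and 9.07 in IL5T EoPs, against 9.31, 9.23 and 9.15 in WT EoPs, and its groups overlapped (0.69 ± 0.35, adjusted p = 0.300). The effect in EoPs differed from that in GMPs for 7 of the 27 members and from that in CMPs for 5, where 3.26% and 3.46% of all probes did.

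Promoters of Creld2 and Derl3 are shown because they are the members that rose and hold the ER stress response element, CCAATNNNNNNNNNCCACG. The element, searched on both strands, was in 7 of the 22 list members with a promoter (31.8%), against 35 of all 27025 genes (0.13%). The 7 were Canx, Creld2, Derl3, Dnajc3, Hspa5, Pdia6 and Syvn1, and Creld2 and Derl3 were the 2 of them that rose. The element is part of how this pathway was defined, so its share in the list does not bear on IL-5. It lay on the opposite strand in both, in capitals with its spacer, in Creld2 at chr15:88819396-88819645 on the plus strand and in Derl3 at chr10:75893148-75893397 on the plus strand.

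Creld2: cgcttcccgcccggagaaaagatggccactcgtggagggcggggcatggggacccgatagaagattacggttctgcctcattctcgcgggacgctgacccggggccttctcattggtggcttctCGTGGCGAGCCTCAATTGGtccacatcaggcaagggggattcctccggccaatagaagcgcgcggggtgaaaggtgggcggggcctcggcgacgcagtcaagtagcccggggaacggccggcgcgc

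Derl3: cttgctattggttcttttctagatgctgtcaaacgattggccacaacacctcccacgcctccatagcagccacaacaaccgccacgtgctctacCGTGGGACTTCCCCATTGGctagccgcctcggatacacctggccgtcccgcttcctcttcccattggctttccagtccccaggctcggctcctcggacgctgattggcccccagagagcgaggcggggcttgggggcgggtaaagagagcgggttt

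Of 30 measured targets of ATF4, the transcription factor of the amino acid response, and genes of amino acid supply, 8 rose, 1 fell and 21 did not pass the test, with a median of 0.35. Mthfd2, a mitochondrial enzyme of one-carbon metabolism, read 11.56, 11.86 and 11.87 in IL5T EoPs, against 9.79, 10.30 and 9.93 in WT EoPs (1.76 ± 0.21, adjusted p = 4.80e-06). Trib3, a pseudokinase induced by ATF4, was undetected in WT EoPs and at least 2.13-fold higher in IL5T EoPs. Slc7a5, the transporter of large neutral amino acids, read 12.33, 12.50 and 12.43 in IL5T EoPs, against 11.49, 11.42 and 11.50 in WT EoPs (0.95 ± 0.20, adjusted p = 0.00318). Shmt2, of serine metabolism, rose by 0.93, and Bcat1, of branched-chain amino acids, was undetected in WT EoPs and at least 1.69-fold higher. Atf4 itself changed by 0.19 (adjusted p = 0.824), with overlapping groups. The count of 8 fell to 5 without WT EoP replicate 3 and to 3 with Hba-a1 in the model.

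Of 15 measured cytosolic tRNA synthetases, 5 rose and 1 fell, with a median of 0.39. Aars read 10.64, 10.99 and 10.89 in IL5T EoPs, against 9.66, 10.03 and 9.66 in WT EoPs (1.06 ± 0.21, adjusted p = 0.00174). Wars rose by 0.94, Tars by 0.89, Kars by 0.60 and Gars by 0.39, while Farsa, which charges phenylalanine, changed by -0.92. Further probes of Wars (1.09) and Tars (0.90) moved alike without passing the test. The count of 5 fell to 2 without IL5T EoP replicate 2, without WT EoP replicate 3 or with Hba-a1 in the model, and to 3 without WT EoP replicate 1. Aars and Wars were the members that kept their call under every alternative.

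Promoters of Aars, Tars and Gars are shown because these 3 were the synthetases that held TGATGNAA, the C/EBP-ATF response element that ATF4 binds, and all 3 rose. The element, searched on both strands, was in 3 of the 10 synthetases with a promoter (30.0%) and in 5 of 24 members of the ATF4 list (20.8%). Of the 8 called members of the ATF4 list with a promoter, 1 held it, Chac1. It was in 3.91% of all genes with a promoter and in 3.02% of those measured, against 3.81% of the genes that rose and 3.4% of those that fell. In each of the 3 it lay on the opposite strand (capitals), in Aars at chr8:111033592-111033841 on the plus strand, in Tars at chr15:11399659-11399908 on the minus strand and in Gars at chr6:55037751-55038000 on the plus strand.

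Aars: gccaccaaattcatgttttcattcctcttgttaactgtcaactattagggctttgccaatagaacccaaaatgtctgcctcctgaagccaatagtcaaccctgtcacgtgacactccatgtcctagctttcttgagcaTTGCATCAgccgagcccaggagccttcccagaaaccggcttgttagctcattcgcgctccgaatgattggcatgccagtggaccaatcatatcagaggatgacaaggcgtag

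Tars: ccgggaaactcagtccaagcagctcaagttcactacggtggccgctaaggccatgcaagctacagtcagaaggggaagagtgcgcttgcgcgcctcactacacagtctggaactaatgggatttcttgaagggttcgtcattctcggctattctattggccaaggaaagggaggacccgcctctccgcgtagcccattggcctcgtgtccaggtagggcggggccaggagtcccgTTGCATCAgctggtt

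Gars: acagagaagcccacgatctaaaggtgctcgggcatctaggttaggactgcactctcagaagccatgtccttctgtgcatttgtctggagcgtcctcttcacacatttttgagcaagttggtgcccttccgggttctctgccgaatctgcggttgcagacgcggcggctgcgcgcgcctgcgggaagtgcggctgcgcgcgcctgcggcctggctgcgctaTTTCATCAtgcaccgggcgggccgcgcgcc

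Of 17 measured genes of sterol synthesis and uptake, 9 rose (4.22% of all genes did) and none fell, with a median of 0.66. Nus1, a subunit of dolichol synthesis that also binds a sterol transport protein, read 9.99, 10.09 and 10.34 in IL5T EoPs, against 8.71, 8.89 and 9.07 in WT EoPs (1.25 ± 0.14, adjusted p = 1.45e-06). Mvd, of the mevalonate pathway, read 9.37, 9.21 and 9.54 in IL5T EoPs, against 7.86, 8.50 and 8.14 in WT EoPs (1.20 ± 0.19, adjusted p = 0.000134), and Mvd was also called in CMPs, where it rose by 0.81. Tmem97, a sterol-regulated membrane protein, rose by 1.07, Nsdhl by 0.91, Sqle by 0.87 and Fdps by 0.79, the last 3 being enzymes of the pathway. These genes were higher in all 3 IL5T EoP arrays, but the count of 9 fell to 5 without IL5T EoP replicate 2, without WT EoP replicate 1 or with Hba-a1 in the model. In fatty acid synthesis, 3 of 10 rose, the elongases Elovl6 (1.05) and Elovl1 (0.71) and the acyl-CoA ligase Acsl4 (0.97).

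Of 23 genes of mitochondrial import and of its ribosome, 8 rose (4.22% of all genes did), none fell and 15 did not pass the test, with a median of 0.46. Timm50, of the inner membrane import machine, read 8.74, 8.58 and 8.74 in IL5T EoPs, against 7.59, 7.49 and 7.06 in WT EoPs (1.31 ± 0.23, adjusted p = 0.000535). Timm17a rose by 0.59 ± 0.09 and the ribosomal subunit Mrps18b by 0.93 ± 0.17. The count of 8 fell to 4 without IL5T EoP replicate 1, to 5 without WT EoP replicate 1 and to 3 without WT EoP replicate 3 or with Hba-a1 in the model. It rose to 11 with arrays scaled to a common median and to 13 with a common median of detected probes. Of 37 genes of oxidative phosphorylation, 4 rose (4.22% of all genes did), by 0.37 to 0.55, with a median of 0.27 over the list, and this count fell to 0 or 1 without any array other than IL5T EoP replicate 1. The count was 8 with arrays scaled to a common median, 7 with a common median of detected probes and 0 with Hba-a1 in the model. Of 26 genes of ribosome biogenesis 5 rose and none fell, and 3 rose without IL5T EoP replicate 1 or 3 and 2 without WT EoP replicate 1. With arrays scaled to a common median 9 rose, and with a common median of detected probes 8. None of 12 measured genes of the MYC and MAX network passed the test.

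Of 19 measured genes of glycolysis, 4 rose and 2 fell, with a median of 0.07. Pdk3, a kinase that blocks pyruvate entry into mitochondria, read 11.06, 11.21 and 11.35 in IL5T EoPs, against 10.29, 10.16 and 10.32 in WT EoPs (0.95 ± 0.16, adjusted p = 0.000304). The glucose transporters Slc2a1 and Slc2a3 rose by 0.78 and 0.50 and aldolase A by 0.62. Hk3, a hexokinase of myeloid cells, changed by -1.08 and Pfkfb2, which makes an activator of glycolysis, by -1.13.

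**Figure D4:**
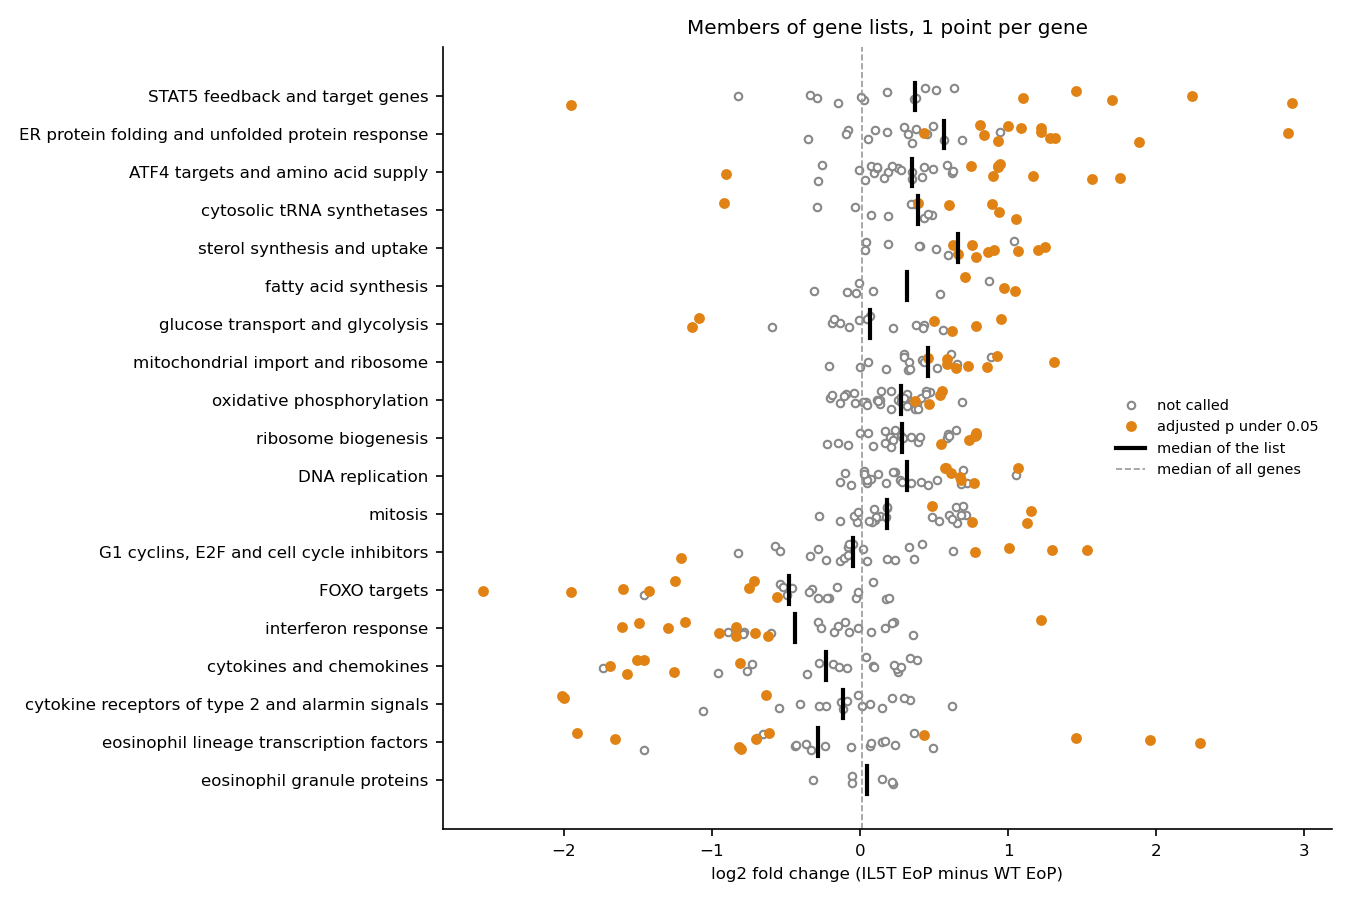
Log2 fold change (IL5T EoP minus WT EoP, horizontal axis) of each measured member of 19 gene lists, with filled points for genes at an adjusted p under 0.05, a bar for the median of each list and a dashed line for the median of all genes (0.01). Medians lie between 0.35 and 0.66 for the ER, ATF4, synthetase, sterol and mitochondrial import lists and at -0.47 and -0.44 for the FOXO and interferon lists.

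Of 25 measured G1 cyclins, E2F factors and inhibitors, 4 rose and 1 fell, with a median of -0.05. Ccne1, cyclin E1, read 8.20, 8.25 and 8.72 in IL5T EoPs, against 6.91, 7.26 and 6.39 in WT EoPs (1.53 ± 0.22, adjusted p = 4.14e-05). Ccne2, cyclin E2, rose by 1.29 ± 0.29 and E2f3, a factor that drives S phase genes, by 1.01 ± 0.19, with 0.67 at a further E2f3 probe that was not called. Btg1, an inhibitor of proliferation, changed by -1.21, a call lost without IL5T EoP replicate 1 or 3 or WT EoP replicate 1 or 3. The D-type cyclins did not pass the test, with Ccnd2 at -0.82 and Ccnd3 at 0.37.

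Of 30 genes of DNA replication, 7 rose and none fell, with a median of 0.32. Orc1, of the origin recognition complex, read 7.88, 7.67 and 7.68 in IL5T EoPs, against 6.80, 6.45 and 6.77 in WT EoPs (1.07 ± 0.16, adjusted p = 6.32e-05). Fen1, Rrm1, Gins2, Rpa2 and Rfc5, of the replication fork and of nucleotide supply, rose by 0.58 to 0.77. The count fell to 4 without IL5T EoP replicate 3, without WT EoP replicate 1 or with Hba-a1 in the model. It rose to 9 with arrays scaled to a common median and to 12 with a common median of detected probes. Of 27 genes of mitosis 4 rose (Ccna2, Birc5, Cdca3 and Cenpa), and this count was 0 without IL5T EoP replicate 2, 1 without WT EoP replicate 3 and 2 without IL5T EoP replicate 3 or WT EoP replicate 1 or 2.

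The FOXO factors are transcription factors that PI3K signaling excludes from the nucleus. Of 24 measured targets, 8 fell (4.17% of all genes did), none rose and 16 did not pass the test, with a median of -0.47. Beside Pik3ip1 and Bcl6, described above, Klhl24, a ubiquitin ligase adaptor, read 9.11, 9.15 and 9.24 in IL5T EoPs, against 10.96, 10.62 and 10.72 in WT EoPs (-1.60 ± 0.25, adjusted p = 0.000145). Hbp1, a repressor of cell cycle genes, read 9.80, 9.68 and 9.80 in IL5T EoPs, against 11.08, 11.04 and 10.89 in WT EoPs (-1.25 ± 0.11, adjusted p = 4.23e-08). Within each group the 3 values of both genes lay close together, though a further Hbp1 probe was not called (-0.09, adjusted p = 0.925). The others were Kmt2e (-1.43), Txnip (-0.75), Insr (-0.71) and Rictor (-0.56), of which Kmt2e, Txnip and Rictor lost their calls under several alternatives. The count of 8 was 4 without WT EoP replicate 3, 4 with arrays scaled to a common median and 5 with Hba-a1 in the model.

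Foxo1 itself changed by -0.52 (adjusted p = 0.186) and Foxo3 by 0.20 (adjusted p = 0.719). The effect in EoPs differed from that in GMPs for 6 of the 24 FOXO targets, where 3.26% of all probes differed, among them Hbp1 (0.42 in GMPs, adjusted p of the difference 4.13e-07) and Pik3ip1 (0.15 in GMPs, adjusted p of the difference 4.99e-05).

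Of 26 measured interferon response genes, 9 fell (4.17% of all genes did), 1 rose (4.22%) and 16 did not pass the test, with a median of -0.44. Ifi27, an interferon-induced protein of mitochondria, read 11.06, 10.81 and 10.75 in IL5T EoPs, against 12.55, 12.39 and 12.15 in WT EoPs (-1.49 ± 0.26, adjusted p = 0.000459). Ddx58, which encodes the RNA sensor RIG-I, read 5.82, 5.77 and 5.63 in IL5T EoPs, against 6.83, 7.01 and 6.94 in WT EoPs (-1.18 ± 0.18, adjusted p = 0.000114). The interferon signaling factors Irf9 and Irf1 each changed by -0.84, and Uba7, which conjugates ISG15, by -0.95. Ifitm1, a membrane protein of antiviral defense, went the other way, with 14.24, 14.28 and 14.60 in IL5T EoPs, against 13.22, 13.15 and 13.08 in WT EoPs, near the top of the scale, and a further probe gave 0.82 without a call. The calls for Trim56 (-1.61) and Dtx3l (-1.29) were lost without IL5T EoP replicate 2 (adjusted p = 0.118 and 0.0587), and that for Trim56 also without WT EoP replicate 1 (adjusted p = 0.0762) or 3 (adjusted p = 0.0707).

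Of 24 measured cytokines and chemokines, 6 fell and none rose, with a median of -0.23, and of 19 receptors of type 2 and alarmin signals 3 fell and none rose. Il12a, a subunit of IL-12 and IL-35, read 7.19, 7.15 and 7.17 in IL5T EoPs, against 8.81, 8.87 and 8.90 in WT EoPs (-1.69 ± 0.39, adjusted p = 0.00718). Il15, a growth factor of lymphocytes, read 10.08, 9.99 and 9.77 in IL5T EoPs, against 11.72, 11.40 and 11.43 in WT EoPs (-1.57 ± 0.20, adjusted p = 9.22e-06). Tslp, an epithelial alarmin, changed by -1.50, Il16, a chemoattractant, by -1.45 (a further probe gave -0.17), the growth factor Hgf by -1.26 and Csf1, the macrophage growth factor, by -0.81. The call for Tslp was lost without IL5T EoP replicate 3 (adjusted p = 0.0679).

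Il17rb, a chain of the IL-25 receptor, read 9.73, 10.21 and 9.46 in IL5T EoPs, against 11.76, 11.66 and 11.95 in WT EoPs (-2.0 ± 0.26, adjusted p = 1.80e-05). Il31ra, a chain of the IL-31 receptor, read 7.93, 6.50 and 6.88 in IL5T EoPs, against 9.19, 9.14 and 9.00 in WT EoPs (-2.01 ± 0.23, adjusted p = 1.69e-06). Neither group overlapped the other for these receptors, as in most genes called (1238 of 1279). Both falls differed from the effects in GMPs (adjusted p = 0.014 and 0.000382) and CMPs (adjusted p = 0.00483 and 0.000124). Ifngr1, of the interferon-γ receptor, changed by -0.64, a call lost with arrays scaled to a common median (adjusted p = 0.414).

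G protein signaling changed in both directions, with 4 of 17 measured members higher and 4 lower. Beside Gpr15 and F2r, F2rl2, the receptor PAR3, was undetected in WT EoPs and at least 2.13-fold higher, and Opn3, an opsin detected on 2 of the 3 IL5T EoP arrays and on no WT EoP array, at least 1.43-fold. Gnaq, the Gq α subunit, read 8.90, 7.77 and 8.50 in IL5T EoPs, against 10.37, 10.27 and 10.55 in WT EoPs (-2.01 ± 0.22, adjusted p = 1.68e-06), so that Gna14 and Gnaq, α subunits of the same class, were both lower. Gpr18, a receptor of lipid mediators, changed by -1.95 ± 0.29 and Ffar2, a receptor of short-chain fatty acids, by -1.50 ± 0.23. In the leukotriene and prostaglandin list, Alox5, the 5-lipoxygenase that starts leukotriene synthesis, rose by 1.60 ± 0.41 (adjusted p = 0.0147) and Alox12e, an epidermal-type lipoxygenase, changed by -1.51 ± 0.21 (adjusted p = 4.43e-05). The call for Alox5 was lost without IL5T EoP replicate 2 or 3 or WT EoP replicate 1.

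Transcription factors of the eosinophil and neighboring lineages split, with 4 of 26 higher and 6 lower. Without IL5T EoP replicate 2 or WT EoP replicate 3, 3 were lower, and without IL5T EoP replicate 3 or WT EoP replicate 3, 2 were higher. Bhlhe40, a basic helix-loop-helix repressor, read 10.78, 10.81 and 10.71 in IL5T EoPs, against 8.28, 8.33 and 8.80 in WT EoPs (2.30 ± 0.27, adjusted p = 2.91e-06), and was also called in CMPs, where it rose by 1.35. Ikzf4, the Ikaros family member Eos, read 6.57, 6.47 and 6.87 in IL5T EoPs and was undetected in WT EoPs at 4.66, 4.64 and 4.74, at least 2.27-fold higher. Ikzf2, the family member Helios, read 7.32, 5.93 and 6.44 in IL5T EoPs, against 8.81, 7.39 and 9.23 in WT EoPs (-1.91 ± 0.44, adjusted p = 0.00733). Of these Ikaros relatives 1 rose and 1 fell, and the fall was lost without IL5T EoP replicate 2 (adjusted p = 0.0573) or WT EoP replicate 3 (adjusted p = 0.0663). Zeb2, a zinc finger repressor, changed by -1.65 (adjusted p = 0.00523, and 0.0521 without IL5T EoP replicate 2), and Lmo2, a partner of GATA factors, by -0.81. Factors central to the eosinophil fate did not pass the test: Gata1 changed by 0.15, Gata2 by -0.24 and Cebpe by 0.07.

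Of the granule protein genes of eosinophils, Epx, Prg2 and Prg3 were near the top of the scale in both groups. Epx, eosinophil peroxidase, read 14.32, 14.33 and 14.39 in IL5T EoPs, against 14.43, 14.40 and 14.38 in WT EoPs, close to the top of the scale at 14.7. Prg2, major basic protein, changed by -0.05 and Prg3, its relative, by -0.31, and none of 6 measured members of this list passed the test (median 0.05). For Epx, Prg2 and Prg3, so near the top of the scale, a difference in RNA could not be told apart from none. In GMPs Epx read 11.46 to 12.54 over 5 IL5T GMP arrays, against 6.89 to 8.67 over 3 WT GMP arrays. No difference between the effects in EoPs and GMPs is drawn for this gene, since its level in EoPs could hardly go higher on this scale.

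The effects in EoPs were then tested against those in GMPs and CMPs, which share no arrays with the EoP comparison. In GMPs 14 probes were higher and 4 lower in IL5T mice, and in CMPs 83 were higher and 84 lower. The difference between the EoP and the GMP effect passed the test for 788 probes (3.26%), 436 positive and 352 negative, and that between the EoP and the CMP effect for 835 probes (3.46%). With arrays of version 2.0 alone the counts were 622 against GMPs and 628 against CMPs. Of the 1764 probes called in EoPs, 715 also differed from GMPs (40.5%) and 676 from CMPs (38.3%), so that for most of them a difference between the populations was not shown. Of the 15 largest rises 12 differed from the GMP effect and 12 from the CMP effect, and of the 15 largest falls 7 and 7. Among them Dgkk and Dhrs9 were undetected on all GMP arrays, and Mfsd2a, Kdelr3, Tpbg, Kcnk5 and Gpr15 on all 3 WT GMP arrays, so that for these genes the change in GMPs was not measured in full. The count against GMPs depended on the scaling, with 1504 probes, of which 79.9% were positive, with arrays scaled to a common median, and 1395, of which 33.8% were positive, with arrays scaled on the detected probes, against 55.3% positive under quantile normalization.

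Calls were also compared between populations. Of 12 genes called in GMPs, 3 were called in EoPs, where 4.22% of all genes rose and 4.17% fell. Of the 3, Bcl2a1b and Rasl11b, a small GTPase-like protein, rose in both, and Map3k14, the kinase NIK, changed by -0.81 in EoPs and by 0.65 in GMPs. Of 120 genes called in CMPs, 30 were called in EoPs and 18 of the 30 moved in the same direction. Mst1r, the receptor RON, moved in opposite directions, with a change of 1.02 in EoPs and -1.64 in CMPs. These genes were picked after their values were seen, as those that the counts are made of.

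**Figure D5:**
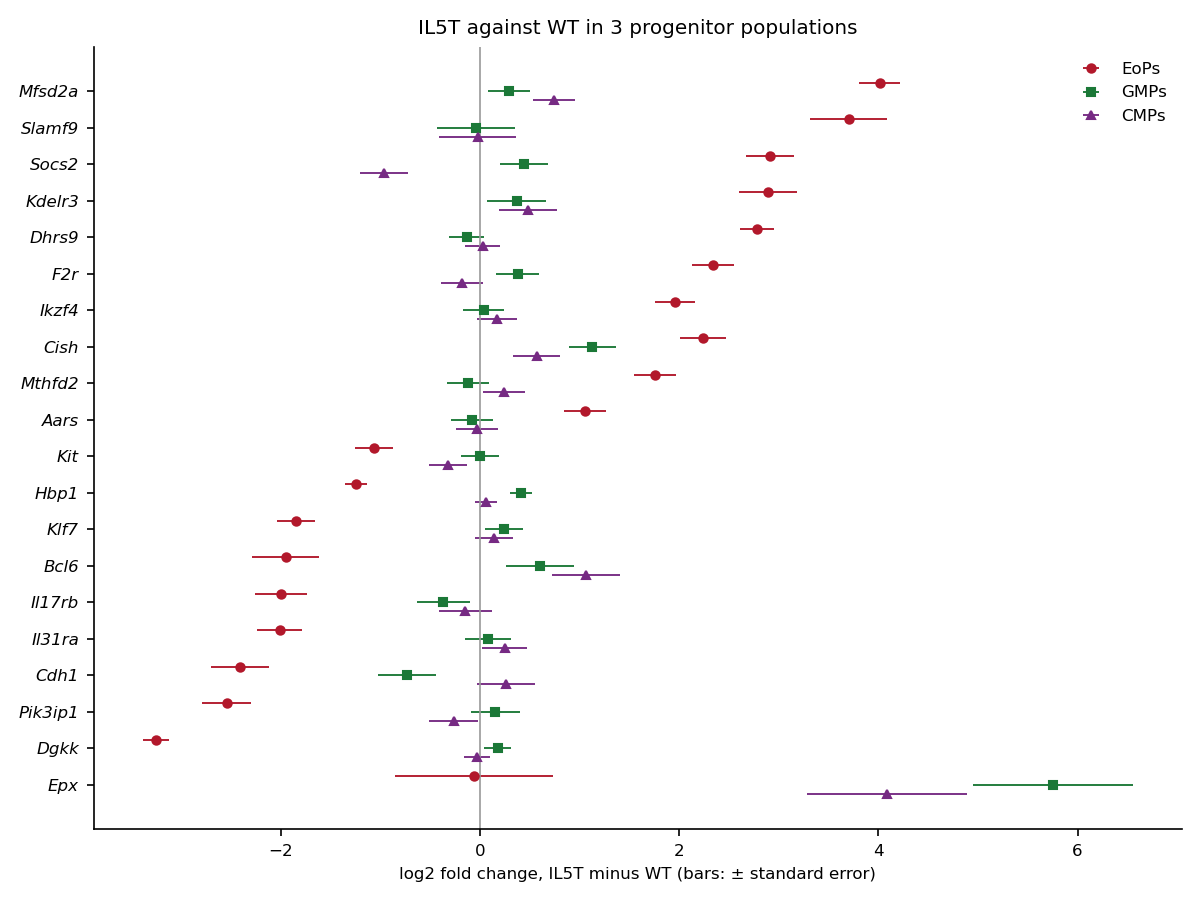
Log2 fold change (IL5T minus WT, horizontal axis, with the standard error) of 20 genes in EoPs, GMPs and CMPs. All but Epx moved by over 1 in EoPs, while Epx changed by -0.06 in EoPs, 5.75 in GMPs and 4.09 in CMPs. The changes in GMPs and CMPs are estimates of the model with its term for beadchip version. For Epx in GMPs the estimate is larger than the difference between any IL5T and any WT GMP array.

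Of the genes that the study's text or its lists of results give, 32 measured ones were taken here as a further list. The study chose them on these same arrays, so that their direction here is not independent evidence. Of these, 12 rose, 17 fell and 3 did not pass the test (Mtor, Ccdc93 and Gas7), and several are described above. Among the rest, Klf7, a Krüppel-like transcription factor, read 8.58, 7.85 and 8.90 in IL5T EoPs, against 10.23, 10.10 and 10.53 in WT EoPs (-1.84 ± 0.19, adjusted p = 4.59e-07). Itgb5, an integrin β chain, read 6.04, 6.14 and 6.16 in IL5T EoPs, against 8.15, 7.68 and 7.85 in WT EoPs (-1.78 ± 0.18, adjusted p = 3.19e-07), and Stat4, a mediator of IL-12 signals, changed by -1.21 ± 0.25. Itgb5 and Stat4 kept their calls under every alternative tried. Pithd1 rose by 1.17 ± 0.12 and Mylk, myosin light chain kinase, by 1.39 ± 0.36, and the call for Mylk was lost without IL5T EoP replicate 2 or 3 or WT EoP replicate 1. For Mtor, the kinase of the growth pathway, the probe with the higher mean gave -0.01 (adjusted p = 0.996) and a further probe 1.28 (adjusted p = 0.00293), so that the probes disagreed. Further probes of Ccdc93 (0.96, adjusted p = 0.00114 by limma) and Gas7 (-1.74, adjusted p = 0.000779) were called as well. The calls of these 3 genes thus depended on the probe.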

How the data were processed

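RNA of sorted cells was hybridized to Illumina MouseWG-6 beadchips (16 arrays of version 1.1, 16 of version 2.0). The authors deposited probe intensities with detection p-values, and log2 values that the authors had background-corrected (normexp) and quantile-normalized over 24159 probes found on both versions; probes of version 2.0 alone were not analysed here. The deposited p-values compare a probe with negative controls; whether the deposited intensities had a local background subtracted is not given in the sources used here. From the intensities, normexp with an offset of 16 was run per version, with controls inferred from the detection p-values, then quantile normalization over 32 arrays in R 4.3.3 with limma 3.58.1. The result differed from the deposited log2 values by at most 0.163.

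A linear model of 9 group means and beadchip version (22 residual degrees of freedom, spread pooled over all groups) was moderated with eBayes, and p-values were adjusted by Benjamini-Hochberg over all probes, with 0.05 as the threshold. The differences of the IL5T effect in EoPs from those in GMPs and CMPs were contrasts of the same model. The fit was tested on simulated data. Where a gene had several probes, the one of highest mean level on the 32 arrays stood for it, and 21296 probes carried 1 gene symbol, 8 several and 2855 none. The number of arrays limits the precision. Named were the 15 largest rises and 15 largest falls among genes called without overlap of the groups and detected on all 3 arrays of the higher group, up to 6 called members with the largest change in each list, and, whether called or not, Il5, the gate, receptor and STAT5 lists and the genes taken from the study's text or lists of results. Other members named were chosen after their values were seen. The members and lists were chosen with earlier results of these data known. Alternatives covered background, scaling, samples fitted, filters, covariates, thresholds and each EoP array left out. Promoters came from RefSeq on GRCm38.p6, searched in Python 3.11.15, and plots used matplotlib 3.10.9.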

Additional observations from a re-analysis of the deposited data

Results flagged for a closer look

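The effect of the IL5T genotype in EoPs differed from that in GMPs for 788 probes and from that in CMPs for 835 probes by the contrast of the 2 effects in limma (adjusted p under 0.05), and the following named genes were picked out because their effect differed between populations. Each value is the log2 change in EoPs minus that in GMPs. Among genes that rose in EoPs these differences were 3.74 for Slamf9, 3.72 for Mfsd2a, 2.92 for Dhrs9, 2.52 for Kdelr3, 2.47 for Socs2, 2.37 for Kcnk5, 2.24 for Rhoj, 2.16 for Sema4a, 2.10 for Cyp11a1, 2.09 for Gpr15, 1.96 for F2r and 1.52 for Tpbg. Among genes that fell they were -3.43 for Dgkk, -2.99 for Alcam, -2.69 for Pik3ip1, -2.64 for Cd72, -2.08 for Auts2, -1.68 for Cdh1 and -1.51 for Gna14. Gna14 and Sema4a were also called in CMPs, in the same direction as in EoPs. Their changes there were -1.74 (adjusted p = 1.92e-05) and 1.34 (adjusted p = 0.0106). The probes of Dgkk and Dhrs9 were undetected on all GMP arrays, those of Mfsd2a, Kdelr3, Tpbg, Kcnk5 and Gpr15 were undetected on all 3 WT GMP arrays, and the probe of Mfsd2a was detected on 1 of 5 IL5T GMP arrays, so that the differences of these 7 genes set the change in EoPs against GMP values wholly or partly at background and are not read as a measured effect in GMPs. Dhrs9 and Gpr15 were also undetected in WT EoPs, and Gna14 in IL5T EoPs, so their changes in EoPs are themselves set against background. Lmna (2.37) and Plau (-1.89) differed between EoPs and CMPs but not, at the threshold, between EoPs and GMPs. The granule protein genes Epx (-5.81) and Prg3 (-5.04) were higher in IL5T GMPs than in WT GMPs and near the top of the scale in EoPs of both genotypes. Their differences thus hold mainly the change in GMPs, as estimated with the term for beadchip version. They are not read as a difference between EoPs and GMPs, since a rise in EoPs could not have been seen. The genes of this paragraph were chosen for their change in EoPs, or, for Epx and Prg3, as granule proteins.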

How the results depend on the processing

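The counts of probes higher and lower in IL5T EoPs stayed within 1.5 times of 907 and 857 under the deposited log2 values, no background correction, a normexp offset of 50, scaling to a common median, fits of version 2.0 or EoP arrays alone, a filter on detection, array weights and Xist as a covariate. They were 579 higher without the version term, 497 higher and 477 lower with Hba-a1 as a covariate, 436 and 453 at an adjusted p under 0.01, and 223 and 338 with a change of at least 1 required. Leaving out 1 EoP array gave 551 to 916 higher and 562 to 814 lower probes. The difference of the EoP effect from the GMP effect gave 1504 probes (79.9% positive) with a common median, 1395 (33.8% positive) with a common median of the detected probes and 291 at an adjusted p under 0.01, against 788 (55.3% positive), and 525 to 799 with 1 EoP array left out. The difference from the CMP effect gave 314 at an adjusted p under 0.01. The cause of these shifts was not tested, beyond the stricter thresholds. The common median of detected probes and Hba-a1 as a covariate were chosen after seeing the data.

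Of 152 named genes called, 77 kept their call under every alternative and 75 lost it under at least 1. The sign turned for Hbb-bt with Hba-a1 as a covariate (0.16) and for Pim2 with the probe of the highest mean over the EoP arrays (-0.06). Whether replicate numbers pair the arrays was not settled, and the main model assumed no pairing. To look at this, the deviation of each EoP array from its group mean was taken over the probes detected on at least 3 EoP arrays. The correlations of these deviations, which are not those of the array values, were 0.0981, 0.2483 and 0.2177 for same-numbered IL5T and WT arrays. For differently numbered arrays they ran from -0.3289 to 0.1229. The deviations of the 3 arrays of a group cancel out, so these correlations are not independent of each other. By their deviations, IL5T replicates 2 and 3 correlated best with the WT replicate of the same number, and IL5T replicate 1 with WT replicate 3 (0.1229). With a replicate block the counts were 942 higher and 926 lower, 782 for the difference from GMPs and 857 for that from CMPs. The differences between populations could not be fitted on EoP arrays alone. Probes at background or near the top of the scale limit what a difference can show.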
